A study of Mus musculus with 6 samples.

Results

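Type 1 conventional dendritic cells (cDC1) made up 395 of the 12520 cells that passed the filters in 6 single cell libraries of CD45+ cells from mouse soleus muscle. They were selected on their own transcripts. A cell was counted as a cDC1 when it held a unique molecular identifier (UMI, 1 counted transcript) of Clec9a or Xcr1, UMIs of at least 2 of the 5 genes Clec9a, Xcr1, Wdfy4, Ifi205 and Gpr171, at most 1 UMI over the macrophage complement genes C1qa, C1qb and C1qc, and 0 UMIs of the T cell gene Cd3e, the B cell gene Cd79a and the migratory dendritic cell gene Ccr7. Cells were kept beforehand when at least 200 genes were detected and at most 10% of the UMIs were mitochondrial. The levels of the 5 gate genes in these cells are therefore a description and carry no test, and so is every difference between cDC1 and another class of cells.

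cDC1 are a small lineage of dendritic cells that depends on the transcription factors Irf8, Batf3 and Id2 and on the growth factor receptor Flt3. They take up dead cells through the receptor Clec9a, move the engulfed antigen onto MHC class I molecules (cross-presentation, in which Wdfy4 is required) and show it to CD8 T cells, and their receptor Xcr1 responds to the chemokine Xcl1 that T cells and NK cells release. In peripheral tissues they are scarce beside macrophages and beside the second lineage of conventional dendritic cells (cDC2), which in this muscle carried Cd209a.

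The study addressed the inflammatory state and metabolism of macrophages in aged soleus muscle early in recovery from disuse, and the sorted CD45+ cells held dendritic cells beside them. Male C57BL/6 mice were young (4-5 months) or old (20-22 months) and were ambulatory controls, hindlimb unloaded (HU) or reloaded for 4 days after HU. Solei of several animals were pooled within each age and treatment, and CD45+ DAPI- cells were sorted, so that each of the 6 groups is 1 library of 1 pool and no spread between animals can be given. Both ages of a treatment share the leading number of their sample titles and each treatment has its own, and the control libraries carry another flow cell than the HU and reload libraries, so whatever these marks stand for cannot be told apart from treatment.

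The control libraries held 41 (young) and 53 (old) cDC1, the HU libraries 12 and 25, and the reload libraries 162 and 102. Kept cells per library ranged from 1518 to 2631. Summed cDC1 UMIs ranged from 109401 in young HU to 2445017 in young reload, and the median UMI count per cDC1 was lowest in old HU (7932) and highest in young reload (14723.5). Both HU groups thus rest on few and shallower cells, and values from young HU are the least precise. Of the 395 cells 5 were marked as doublets by scrublet and 5 carried a barcode that also occurred in another library. The gates for Cd209a dendritic cells, macrophages, T cells and Ccr7 dendritic cells exclude cDC1 by their own conditions. No cell could therefore be counted in both, and this says nothing about purity.

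The gate genes lie on chromosome 6 at 129408862 to 129424763 (Clec9a, plus strand), chromosome 9 at 123852315 to 123862029 (Xcr1, minus strand), chromosome 14 at 32959547 to 33185508 (Wdfy4, minus strand), chromosome 1 at 174011998 to 174031810 (Ifi205, minus strand) and chromosome 3 at 59096448 to 59101821 (Gpr171, minus strand) of mouse build GRCm38 (mm10). Clec9a, the receptor for exposed actin of dead cells, had a UMI in 95.9% of the cDC1 and Xcr1 in 35.7%. Wdfy4 had a UMI in 92.7%, the interferon-inducible Ifi205 in 82.5% and the orphan receptor Gpr171 in 67.3%. Clec9a stood between 168 CPM (UMIs of the gene per 1000000 UMIs summed over the cDC1 of the library) in young control and 256 CPM in young HU. Gpr171 varied most among the 5 between treatments. Its level was 88.8 and 129 CPM in the young and old control libraries, 27.4 and 87.3 CPM after HU and 381 and 245 CPM after reloading, so that both reload libraries lay above the other 4. Wdfy4 showed a narrower spread, from 219 CPM in young HU to 477 CPM in old reload.

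The border of the gate was populated on both sides. Of the 395 cells 37 held exactly 2 of the 5 gate genes, 106 held 3, 174 held 4 and 78 held all 5. Clec9a without Xcr1 admitted 254 cells, Xcr1 without Clec9a admitted 16, and 125 held both. A single C1q UMI was present in 45 members. Just outside, 19 cells had 1 gate gene and met every other condition, 73 had over 1 C1q UMI (5 of them exactly 2), 14 held Cd3e or Cd79a, and 30 were kept out by Ccr7 alone, 11 of them in young reload and 7 in old reload. A further 146 cells carried 2 or more gate genes without a UMI of Clec9a or Xcr1.

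Among genes that the gate did not use, Irf8 separated the cDC1 from Cd209a dendritic cells in every library. Irf8, the lineage's defining transcription factor, was at 394, 532, 649, 411, 587 and 645 CPM in cDC1 (young control, old control, young HU, old HU, young reload, old reload) and at 18.3, 30.7, 4.08, 11.3, 47.3 and 17.2 CPM in the 504 Cd209a dendritic cells of the same libraries. The ranges of the classes did not overlap. After each cell was thinned at random to 2000 UMIs, 56.9% of the cDC1 held an Irf8 UMI (exact 95% interval 51.8 to 61.8%), against 2.95% of Cd209a dendritic cells, 619 of 4131 macrophages and 3.70% of T cells. Intervals here and below cover counting error only. Naaa, a lysosomal amidase, was found in 66.6% of thinned cDC1 and 33.8% of Cd209a dendritic cells. Over all libraries together, Itgae, the CD103 integrin of tissue cDC1, was found in 71 of the 392 thinned cDC1, the adhesion molecule Cadm1 in 51 and the RNA sensor Tlr3 in 23. Each of these 3 had a UMI in none of the 474 thinned Cd209a dendritic cells, which allows a share of up to 0.633%. In young HU the cDC1 held 0 UMIs of Itgae and 1 of Tlr3 before thinning, so these genes did not separate the classes there. Batf3 separated the classes least, with 14.0% of cDC1 and 10.3% of Cd209a dendritic cells.

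Across the 5985 genes with at least 100 UMIs in both classes together, 658 were higher and 819 lower in cDC1 in all 6 libraries. Of these, 7 were higher and 26 lower by at least 4-fold in every library on the log2(CPM + 10) scale. The counts include genes that the gates used, with Clec9a, Ifi205 and Wdfy4 among the 7 and Cd209a, Mgl2 and Clec10a among the 26. Beyond the gate genes and Irf8, the highest ratios included the lysosomal enzyme Ppt1 (550 CPM in cDC1 and 44.2 CPM in Cd209a dendritic cells), the endosomal GTPase Rab7b (334 and 49.1), the actin-binding Dbn1 (72.8 and 5.32), the nucleotide receptor P2ry14 (65.9 and 3.93) and the immunoproteasome subunit Psmb9 (417 and 78.9). Cst3, the protease inhibitor cystatin C, was the most abundant of the identity genes and lay between 23667 and 30429 CPM in cDC1 and between 4218 and 9742 CPM in Cd209a dendritic cells. The lowest ratios belonged to the alternative activation gene Retnla (2.16 and 1808 CPM), the lectins Mgl2 and Cd209a that the comparison gate used, the phospholipid transfer protein Pltp (18.1 and 671), the matrix proteins Ecm1 (6.10 and 293) and Fn1 (20.9 and 494), the chemokine Ccl9 (22.4 and 491) and the lysozyme Lyz1 (18.1 and 419).

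**Figure D1:**
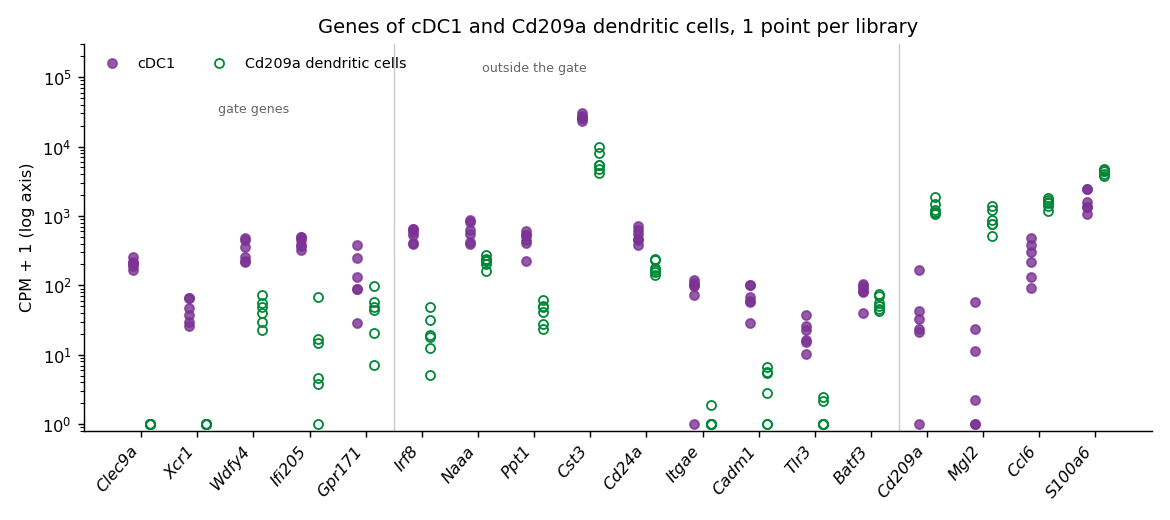
Levels of 18 genes in cDC1 (filled) and Cd209a dendritic cells (open), 1 point per library, as CPM + 1 on a log axis, with the gate genes at the left. Irf8 lay between 394 and 649 CPM in cDC1 and did not exceed 47.3 CPM in Cd209a dendritic cells, whereas Batf3 levels lay close together.

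cDC1 took their largest share of the sorted cells during reloading. Of the kept cells of the control libraries they were 2.55% (young, 95% interval 1.84 to 3.45%) and 2.01% (old, 1.51 to 2.63%). After HU they were 0.791% (young, 0.409 to 1.38%) and 1.32% (old, 0.858 to 1.95%). After reloading they were 6.61% (young, 5.66 to 7.67%) and 4.21% (old, 3.44 to 5.08%). The young reload interval lay above those of the control and HU libraries, and the old reload interval lay above all of them but that of young control, which it met at its edge. The share at reload was 8.36 times that at HU in young muscle (95% interval of the ratio 4.66 to 16.5) and 3.18 times in old muscle (2.04 to 5.14). These ratios compare single libraries and not replicated conditions.

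Cells that were not leukocytes by their transcripts weighed on the HU denominators. Cells with endothelial or fibroblast markers numbered 451 (young) and 299 (old) after HU and between 47 and 75 in the other libraries. Without them the cDC1 shares were 2.63, 2.06, 1.12, 1.57, 6.82 and 4.31% in the same order, with reload still highest at both ages.

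Old and young muscle did not differ in a uniform direction. The old share minus the young share was -0.54 percentage points in controls, 0.53 in HU and -2.40 in reload (mean -0.80, two-sided exact permutation test swapping ages within treatments, p = 0.5, where 0.25 is the smallest p that 3 pairs allow). Within reload alone, the old library held 0.636 times the young share (0.492 to 0.820), while in controls (0.789, 0.515 to 1.22) and HU (1.67, 0.810 to 3.66) the interval included 1. Depth moved with these shares. Kept cells had a median of 4548 and 3952 UMIs in young and old control, 2557 and 2557.5 in HU and 7997 and 5964 in reload. A deeper cell is more likely to show the gate genes, and how far this moved the shares was not tested. In an alternative, each cell was thinned to 2000 UMIs before the gate was applied. Cells under 2000 UMIs were left out, so that 939 of 1518 kept cells remained in young HU and 2175 of 2451 in young reload. The shares were then 0.619, 0.891, 0.639, 0.779, 2.62 and 1.79%, resting on 8, 20, 6, 9, 57 and 36 cDC1. Reload remained highest at both ages, and the order of the control libraries turned round (old minus young 0.27 percentage points). With that thinning the interval of the old to young ratio in reload included 1 as well (0.684, 0.438 to 1.06).

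Among all gated dendritic cells (cDC1, Cd209a and Ccr7 dendritic cells together), cDC1 made up 33.3% and 40.2% in the young and old control libraries, 12 of 100 cells and 30.1% after HU, and 55.5% and 51.0% after reloading. They were thus the minority beside Cd209a dendritic cells in control and HU libraries and the majority in both reload libraries. The lowest value was in young HU, where 12 cDC1 stood beside 87 Cd209a dendritic cells. Old minus young was 6.82 points in controls, 18.1 in HU and -4.48 in reload (mean 6.82, exact permutation p = 0.5). With thinning before the gate, the shares were 12.3, 30.3, 9.68, 17.3, 31.5 and 31.6%, so that cDC1 were then the minority in reload too. Thinning acted unequally on the 2 gates. Young reload then held 57 cDC1 and 119 Cd209a dendritic cells (162 and 116 without thinning), and old reload 36 and 76 (102 and 93).

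**Figure D2:**
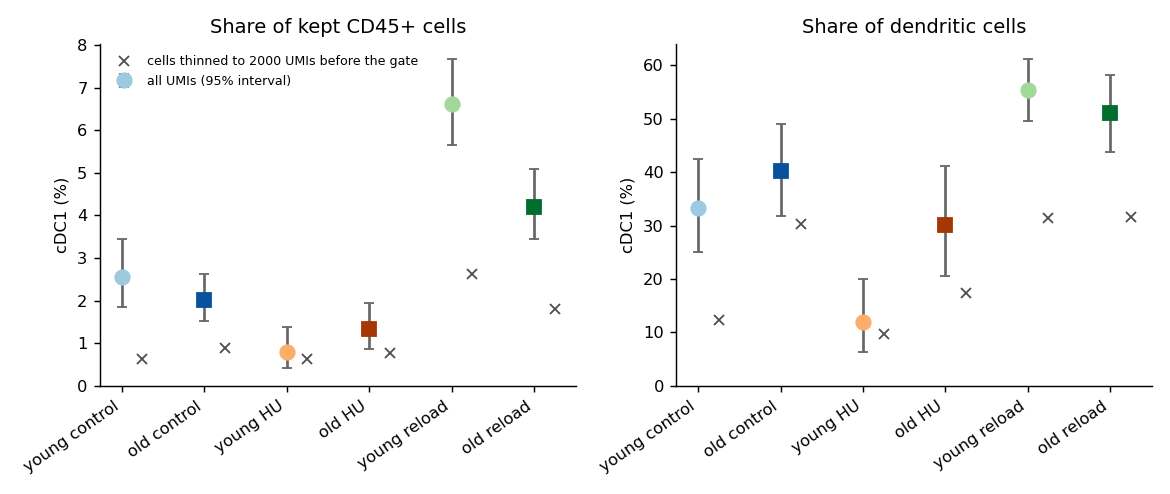
Share of cDC1 among kept cells (left) and among gated dendritic cells (right) in percent, per library, with exact 95% binomial intervals. Crosses show the share after thinning to 2000 UMIs before the gate, with cells under 2000 UMIs left out. Young reload (6.61%) and old reload (4.21%) stood above the other 4 libraries at the left.

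Whether the cDC1 of reloaded muscle differed from those of unloaded muscle was tested on UMIs summed over the cDC1 of each library, with age as a covariate, in 1 edgeR quasi-likelihood fit over the 6 sums, which leaves 2 residual degrees of freedom. Of 4895 genes tested, 5 were higher in reload (0.102%) and 11 lower (0.225%) at a Benjamini-Hochberg adjusted p under 0.05. The genes that rose were the growth factor receptor subunit Csf2rb, the cyclin Ccnd1, the tRNA synthetase gene Lars2, the transcript Gm42418 and the mitochondrially encoded mt-Atp8. Those that fell included the immediate early genes Egr1 and Ier2, the cytokine signalling inhibitor Socs3 and the chemokine Ccl6.

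Csf2rb encodes the common beta chain through which GM-CSF, interleukin-3 and interleukin-5 signal, and GM-CSF supports cDC1 in peripheral tissue. Its level was 422 and 256 CPM in the young and old control libraries, 45.7 and 36.0 CPM after HU and 360 and 314 CPM after reloading. Both HU libraries lay below the other 4 by a wide gap, and the ranges of reload and control overlapped. The difference between reload and HU was 2.82 on the log2 scale (SE 0.38, adjusted p = 0.027). The HU levels of Csf2rb rest on 5 (young) and 7 (old) UMIs. Over all libraries together, a Csf2rb UMI was present in 298 of the 395 cells. Cd209a dendritic cells showed the same order, with 46.9 and 62.2 CPM in the HU libraries and 299 and 278 CPM in the reload libraries. The difference between the classes was not called (0.72, SE 0.47, edgeR adjusted p = 0.788).

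Ccnd1, the D-type cyclin that acts in early G1, was at 113 and 217 CPM in the young and old control libraries, 18.3 and 36.0 CPM after HU and 231 and 279 CPM after reloading. Its HU levels rest on 2 and 7 UMIs. The difference was 2.97 (SE 0.39, edgeR adjusted p = 0.027), and it was larger than in Cd209a dendritic cells by 1.89 (SE 0.51, adjusted p = 0.0462).

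Lars2, the mitochondrial leucyl-tRNA synthetase, stood at 238 and 329 CPM in young and old HU, at 1059 and 1514 CPM in reload and at 1641 and 1606 CPM in control. Gm42418, which overlaps a ribosomal RNA repeat, followed the same order with 2706 and 3426 CPM in HU and 12816 and 17167 CPM in reload. mt-Atp8, a subunit of the mitochondrial ATP synthase, was instead lowest in control (20.2 and 19.4 CPM), intermediate in HU (45.7 and 118) and highest in reload (489 and 511). Log2 differences between reload and HU were 1.94 (SE 0.27) for Lars2, 2.06 (SE 0.31) for Gm42418 and 2.31 (SE 0.36) for mt-Atp8. All 3 had nearly the same levels in Cd209a dendritic cells, for example 34.7 and 150 CPM of mt-Atp8 in HU and 482 and 502 CPM in reload. Ribosomal protein genes took 30.1% and 30.6% of cDC1 UMIs in the HU libraries and between 21.5% and 26.6% in the others, and the part of this difference in the fitted values was not tested.

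Egr1, an immediate early transcription factor, was at 125 and 120 CPM in young and old control, 128 and 134 CPM in HU and 18.4 and 22.8 CPM in reload. The 4 libraries without reloading were nearly level and both reload libraries lay far below them (log2 difference -2.91, SE 0.34, edgeR adjusted p = 0.0195). Cd209a dendritic cells held 122 and 95.3 CPM of Egr1 in reload, and the difference between the classes was called (-2.20, SE 0.41, edgeR adjusted p = 0.000205). Ier2 was at 530 and 467 CPM in HU and at 191 and 153 CPM in reload (-1.75, SE 0.25), and Cd209a dendritic cells differed alike (571 and 656 against 168 and 265 CPM). Socs3, which restrains STAT3 signalling, was at 238 and 324 CPM in HU, 55.2 and 34.6 CPM in reload and 66.6 and 88.3 CPM in control (-2.88, SE 0.34).

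Ccl6, a chemokine that macrophages and cDC2 make at far higher levels, was at 305, 214, 475, 380, 129 and 92.0 CPM in the usual order and fell by 2.20 on the log2 scale (SE 0.26, edgeR adjusted p = 0.0195). S100a6, a calcium-binding protein, was at 2477 and 2429 CPM in HU and 1057 and 1347 CPM in reload (-1.26, SE 0.20). The sulfotransferase Sult1a1 was at 137 and 159 CPM in HU and 29.0 and 22.8 CPM in reload (-2.77, SE 0.33), and the nuclear cofactor Lmo1 at 292 and 195 CPM in HU and 54.8 and 60.6 CPM in reload (-2.27, SE 0.29). Serinc3, a membrane lipid carrier protein, glutamine synthetase (Glul) and the actin-associated Pdlim1 differed by -2.001, -2.10 and -1.92, and in each of the 3 both reload libraries were below the other 4. None of these 15 genes changed direction in any of up to 18 alternative fits, and each was called in 12 to 17 of them. The number of calls was less steady and was 7 without young reload (4 of them among the 16) and 13 without old reload (3 of the 16). Scaling to total UMIs alone, which moves the median of all genes in the fit from 0.04 to 0.29, gave 66 higher and 40 lower.

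**Figure D3:**
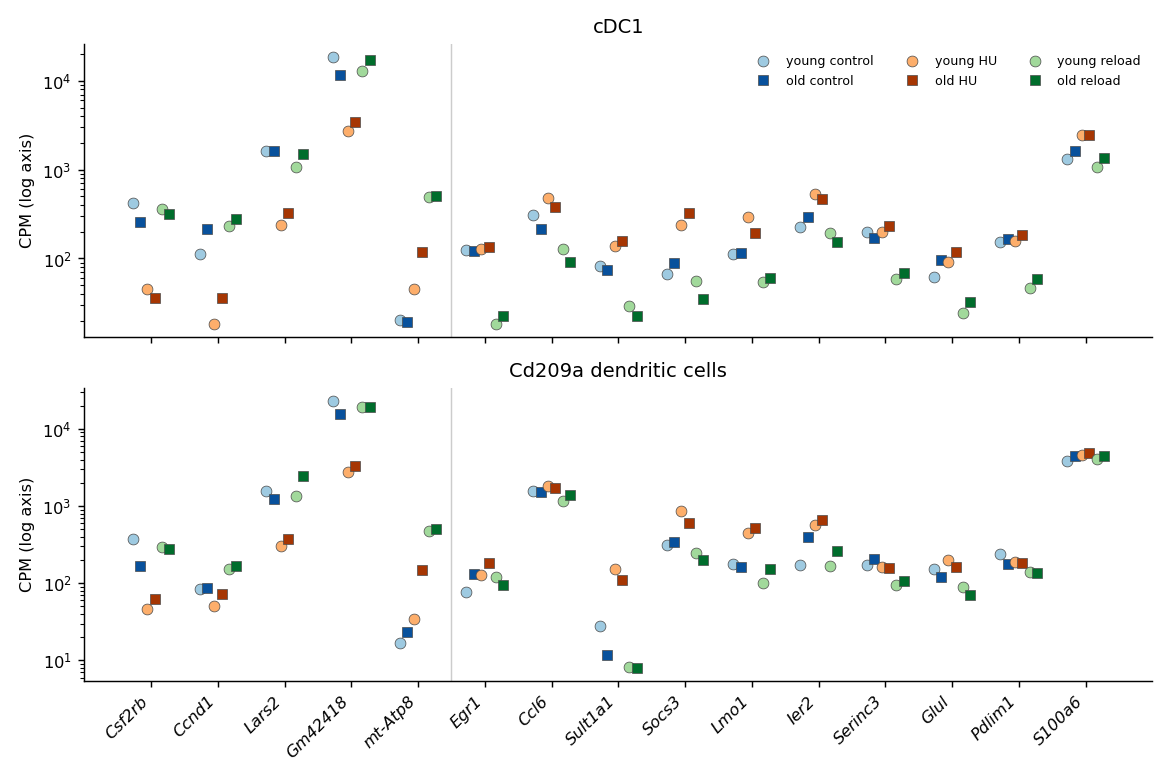
Levels of the 15 named genes that differed between reload and HU, in CPM on a log axis, per library in cDC1 (top) and in Cd209a dendritic cells (bottom); circles are young, squares old, and the genes left of the line were higher in reload. Csf2rb in cDC1 was at 45.7 and 36.0 CPM in HU and at 360 and 314 CPM in reload, while Egr1 was at 18.4 and 22.8 CPM in reload cDC1 and at 122 and 95.3 CPM in reload Cd209a dendritic cells.

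Antigen presentation was followed through lists. Of 24 genes of MHC class I presentation and cross-presentation 22 passed the filter on low counts, and none passed the adjusted threshold between reload and HU in the edgeR fit (10 higher and 0 lower at an unadjusted p under 0.05, against 398 higher and 371 lower of all 4895 genes). Their median difference was 0.81 in the fit and 1.06 in the fit with scaling to total UMIs, beside medians of 0.04 and 0.29 for all genes. In young muscle 17 of the 22 were higher in reload and in old muscle 21 of 22, beside 3138 and 3160 of all 4895 genes. The classical heavy chain H2-K1 was at 210 and 288 CPM in young and old HU, 799 and 781 CPM in reload and 965 and 922 CPM in control (1.41, SE 0.26, edgeR adjusted p = 0.0780). H2-D1 was at 585 and 811 CPM in HU, 1833 and 1726 CPM in reload and 2154 and 2010 CPM in control (1.11, SE 0.24, adjusted p = 0.102). For both, the HU libraries were the low ones and reload lay slightly under control. The peptide transporter Tap1 (91.4 and 87.3 CPM in HU, 209 and 204 CPM in reload) and the immunoproteasome subunit Psmb9 (247 and 200, then 507 and 458) were instead highest in reload, also above control (98.9 and 118 for Tap1, 164 and 267 for Psmb9).

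MHC class II genes, the other arm of presentation, showed smaller differences. All 12 measured genes of the list passed the filter, their median was 0.20 in the fit, and none was called by edgeR (2 higher and 1 lower at an unadjusted p under 0.05). The invariant chain Cd74 lay between 35082 and 46458 CPM and H2-Aa between 13013 and 15417 CPM over the 6 libraries, so that both were nearly level across age and treatment.

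Of 24 interferon-stimulated genes 11 passed the filter, with a median of 1.21 between reload and HU and none called by edgeR (6 higher and 1 lower at an unadjusted p under 0.05). In each age 9 of the 11 were higher in reload, beside 3138 (young) and 3160 (old) of all 4895 genes. Ifitm3, a membrane restriction factor, was at 446, 829, 128, 580, 1130 and 994 CPM in the usual order, lowest in young HU and highest in both reload libraries. Isg15, the ubiquitin-like interferon target, was at 16.1, 24.7, 0, 25.7, 155 and 179 CPM (3.19, SE 0.56, adjusted p = 0.0712), and 148 of the 379 UMIs in young reload came from 1 cell. Irf1 went the other way in old muscle, with 103 CPM in HU and 18.9 CPM in reload.

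Immediate early and heat shock genes were lower in reload as a list. All 24 passed the filter. By edgeR 2 were called lower (Egr1 and Ier2) and 0 higher, beside 11 and 5 of all 4895 genes. In the fit 19 of 24 lay below 0, beside 2330 of 4895. The median was -0.91 in the fit and -0.66 with scaling to total UMIs, beside 0.04 and 0.29 for all genes. In single pairs 16 of 24 were lower in reload in young and 15 in old muscle, beside 1757 and 1734 of all genes. In Cd209a dendritic cells 15 and 14 of 24 were lower, beside 1887 and 1843. Jun was at 402 and 221 CPM in HU and 67.1 and 83.4 CPM in reload (-2.17, SE 0.45, edgeR adjusted p = 0.0994). The antiproliferative Btg2 moved against the list, with 155 and 134 CPM in HU and 526 and 428 CPM in reload (1.48, SE 0.26, adjusted p = 0.0712). The chaperone Hspa1a was at 4693 and 482 CPM in the young and old control libraries, 2504 and 169 CPM after HU and 199 and 249 CPM after reloading, and Cd209a dendritic cells had 4492, 590, 2909, 356, 403 and 346 CPM. Young control and young HU were thus high in both classes alike, and the source of this difference between libraries was not tested.

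Genes of dendritic cell activation differed between reload and HU in opposite directions at the 2 ages. Of all 4895 genes tested, 3138 were higher in reload in young muscle (median 0.28) and 3160 in old muscle (median 0.24). Of the 20 genes of the TNF and NF-kB list that passed the filter (23 listed), 16 were higher in reload in young muscle (median 1.12 on the log2(CPM + 10) scale) and 14 were lower in old muscle (median -0.80). Of 12 mature dendritic cell genes (22 listed), all 12 were higher in young muscle (median 1.01) and 9 lower in old muscle (-0.65). Of 14 genes of costimulation and T cell signals (24 listed), 12 were higher in young (0.54) and 10 lower in old muscle (-0.98). The HU libraries set this pattern, since the old HU library exceeded young HU in 19 of 20, 11 of 12 and 11 of 14 genes, beside 2456 of all 4895. In young HU the 3 lists held few UMIs. The TNF and NF-kB list held 116 (5 of 23 listed genes at 0) and the mature list 44 (16 of 22 at 0). The costimulation list held 66 (11 of 24 at 0). A gene at 0 in young HU cannot come out lower in young reload or in old HU, so the floor bears on these directions. With 1 library per group these opposite directions were not tested, and in the fit over both ages none of the 3 lists held a called gene. That fit counts opposite directions at the 2 ages as spread, so it could hardly call such genes, and nothing follows from the lack of calls. The median of that fit was below 0 with TMM and with total UMIs, at -0.54 and -0.28 for mature dendritic cell genes, -0.50 and -0.23 for TNF and NF-kB genes and -0.75 and -0.49 for costimulation genes. The plain mean of the log2(CPM + 10) differences at both ages, which weights the young pair as much as the old one, instead had medians of 0.17, 0.04 and -0.19.

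The adhesion molecule Icam1, which binds LFA-1 on T cells, was lower in old reload than in old HU and not in the young pair. It was at 297 and 189 CPM in young and old control, 27.4 CPM in young HU, 411 CPM in old HU and 80.6 and 75.5 CPM in young and old reload. The costimulatory ligand Tnfsf9 (4-1BBL) was at 125, 84.8, 36.6, 416, 34.4 and 16.5 CPM, and in old HU 16 of the 25 cells held it. The NF-kB inhibitor and target Nfkbia was at 488, 608, 283, 1063, 204 and 260 CPM, and the maturation marker Cd83 at 941, 595, 265, 796, 528 and 465 CPM. Of these, Icam1 and Cd83 were higher in reload in young and lower in old muscle. Tnfsf9 and Nfkbia were clearly lower in reload in old muscle only (log2 ratios of -4.65 and -2.03). In young muscle Tnfsf9 was nearly level (-0.09, interval -1.50 to 1.82). Nfkbia was slightly lower there (-0.47, -0.99 to 0.10), and neither interval excluded equal levels. The same held for the young rise of Icam1 (1.55, -0.01 to 3.85). For all 4 genes old HU was far above young HU, whose levels rest on 12 cells and on 3 UMIs of Icam1 and 4 of Tnfsf9. Cd209a dendritic cells gave the same sign between the HU libraries for Icam1 (99.9 and 467 CPM) and Tnfsf9 (440 and 704 CPM). In them 19 of 20 TNF and NF-kB genes were higher in old than in young HU too (2448 of all 4895 genes). Their median was 0.66 beside 1.71 in cDC1.

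**Figure D4:**
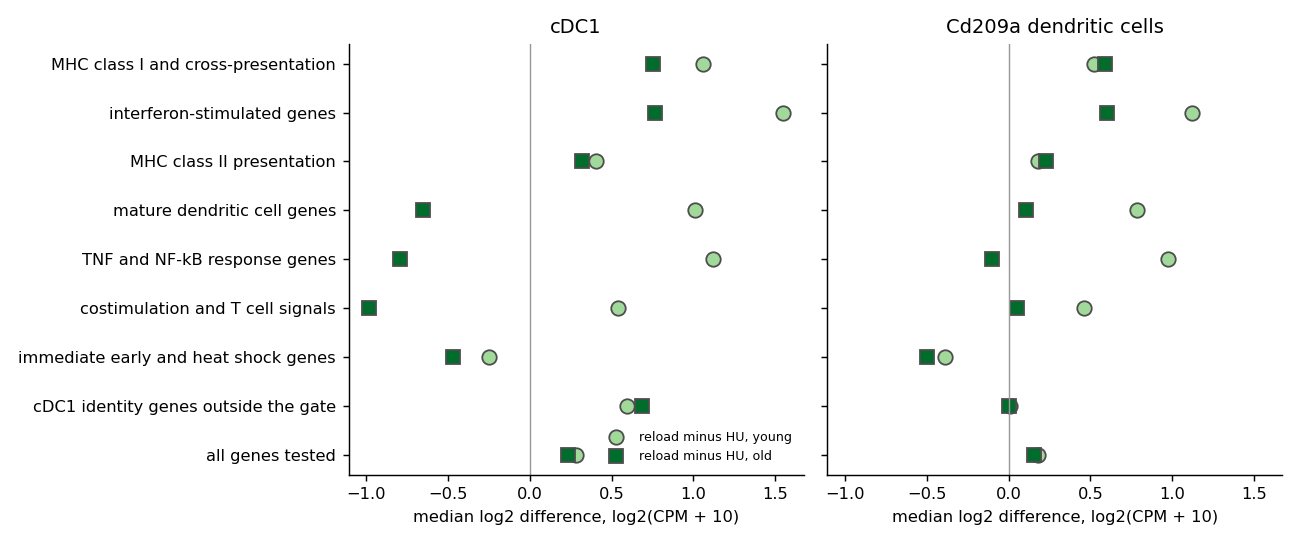
Median difference between reload and HU of gene lists, in log2(CPM + 10), in cDC1 (left) and Cd209a dendritic cells (right), for young (circles) and old (squares) libraries. Mature dendritic cell genes stood at 1.01 in young and at -0.65 in old cDC1, while MHC class I genes were above 0 at both ages (1.06 and 0.75).

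Receptors for growth factors, chemokines and microbes held Csf2rb as their 1 called gene of 18 that passed the filter (25 listed). The Flt3 receptor was at 80.7 and 110 CPM in control, 54.8 and 87.3 CPM in HU and 157 and 154 CPM in reload (0.86, SE 0.33, edgeR adjusted p = 0.272). The other GM-CSF receptor chain, Csf2ra, did not follow Csf2rb and was at 188, 200, 311, 134, 194 and 150 CPM. Of the identity genes outside the gate, 23 of 24 passed the filter and none was called between reload and HU (median 0.35 in the fit and 0.58 with scaling to total UMIs). Irf8 differed by 0.02 (SE 0.26) and Batf3 by -0.25 (SE 0.39). Glycolysis genes (13 tested, median 0.10) and oxidative phosphorylation genes (16 tested, median 0.23) held no called gene either.

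Age was tested in the same way across the 3 treatments with treatment as a covariate. Of 4895 genes, none was higher (0%) or lower (0%) in old cDC1 at an adjusted p under 0.05 in edgeR, with 73 higher and 74 lower at an unadjusted p under 0.05, and DESeq2 called none either (9 higher and 22 lower unadjusted). On counts simulated for this comparison, the fit recovered 36.5% of genes changed 2-fold and 96.0% of those changed 4-fold, so that changes of moderate size could have been missed. The simulation gave every gene the same dispersion (0.037) and each changed gene the same change at every treatment. It does not show that a 4-fold change in the real counts would be called. For reload against HU the same simulation recovered 6.5% of genes changed 2-fold and 68.0% of those changed 4-fold, so a list without a called gene may hold changes of that size. The smallest p values belonged to the small heat shock gene Hspb1 (307 CPM in young control, 73.1 in young HU and at most 1.23 elsewhere), of whose 152 UMIs in young control 86 came from 1 cell, and to Ly6d (12, 9 and 67 UMIs in old control, young reload and old reload, in 7 cells). The lipid carrier Apoe, a macrophage gene, was at 66.6 and 23.0 CPM in young and old control, 0 and 5.14 CPM in HU and 67.1 and 13.4 CPM in reload (-1.95, SE 0.36, edgeR adjusted p = 0.733). Hexim1 (1.46, SE 0.34), Rgcc (1.04, SE 0.26), Tcf4 (1.01, SE 0.29) and Fosb (0.88, SE 0.23) had the next smallest p values on the higher side, and Rhob (-1.88, SE 0.41), Srxn1 (-1.69, SE 0.41) and Sdcbp2 (-1.32, SE 0.32) on the lower side, each at an adjusted p of 0.9996.

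Cell cycle genes had lower levels in old cDC1 as a list, without a call. Of 22 genes that passed the filter (24 listed), 21 lay below 0, the median was -0.64 in the fit and -0.65 with scaling to total UMIs beside 0.02 and 0.02 for all genes, and 6 lower and 0 higher had an unadjusted p under 0.05 (edgeR, none adjusted). Old was below young in 20 of the 22 in controls, 16 in HU and 17 in reload, beside 1902, 2397 and 2742 of all 4895 genes. The replication licensing gene Mcm3 was at 54.5 and 12.4 CPM in young and old control, 64.0 and 25.7 CPM in HU and 47.4 and 23.6 CPM in reload, so that every old library lay below every young one (-1.34, SE 0.34, edgeR adjusted p = 0.9996). The ribonucleotide reductase subunit Rrm2 gave 56.5 and 15.9, 36.6 and 20.5, and 48.7 and 33.8 CPM in the same pairs. Stmn1 and the tubulins Tuba1b and Tubb5 were lower in the old library of each pair. The histone H2afz went against the list in HU (3556 CPM young, 5783 CPM old). In Cd209a dendritic cells only 2 of the 22 were lower in old than young in HU and 3 in reload, against 16 in controls. Of all 4895 genes, 2421, 2595 and 1868 were lower there in the same order.

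Cells in cycle were more frequent among cDC1 than among the other classes by count. With each cell thinned to 2000 UMIs, 42 of 392 cDC1 (10.7%, 95% interval 7.83 to 14.2%) held at least 2 of 12 proliferation genes, against 4.85% of Cd209a dendritic cells, 3.41% of macrophages and 3.24% of T cells. The share was 12.2% (5 of 41) and 5.66% (3 of 53) in the young and old control libraries, 16.7% (2 of 12) and 1 of 25 after HU, and 13.8% (22 of 160) and 8.91% (9 of 101) after reloading. It was lower in the old library of all 3 pairs (by -6.53, -12.7 and -4.84 percentage points, mean -8.01). The exact permutation p was 0.25, the smallest possible, so the difference could not pass a threshold of 0.05, and in HU it rests on 2 cells and 1 cell. Before thinning, these 42 cells had a median of 18998 UMIs and the other 350 a median of 11393. Irf8 stood at 564 CPM in the cycling cells and 573 CPM in the others, and Batf3 at 88.8 and 88.1 CPM. Other identity genes went both ways. Lower in the cycling cells were, among others, Snx22 (6.00 and 36.3 CPM), Itgae (67.2 and 110 CPM), Zbtb46 (21.6 and 33.9 CPM) and Nfil3 (157 and 222 CPM). Higher in them were, among others, Id2 (508 and 464 CPM), Itgax (80.4 and 62.0 CPM) and Gcsam (55.2 and 51.8 CPM). Of the gate genes, Clec9a (137 and 221 CPM) and Gpr171 (160 and 293 CPM) were lower, while Wdfy4 was nearly level (419 and 410 CPM).

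**Figure D5:**
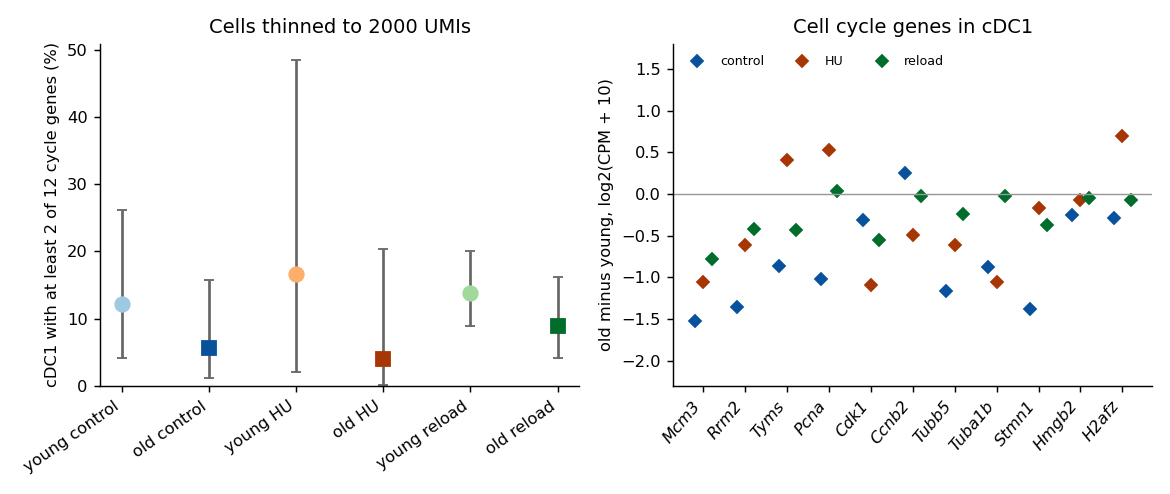
Left, percent of cDC1 with at least 2 of 12 cycle genes after thinning to 2000 UMIs, per library, with exact 95% intervals; right, old minus young difference in log2(CPM + 10) of 11 cell cycle genes in each treatment. The share was lower in old than in young at each treatment, for example 5.66% and 12.2% in controls, with overlapping intervals.

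Whether cDC1 and Cd209a dendritic cells differed in their response was tested on the sums of both classes in 1 edgeR fit over 6186 genes, with library as a term. For age, 10 genes were higher (0.162%) and 8 lower (0.129%) in the cDC1 difference, and 2 of the higher ones, Cd209a and Mgl2, had been used to gate the comparison cells. For reload against HU, 18 were higher (0.291%) and 33 lower (0.533%). Ly6e, a surface protein induced by interferon, was nearly level in cDC1 (622 and 452 CPM in HU, 585 and 477 CPM in reload) while in Cd209a dendritic cells it was at 99.9 and 136 CPM in HU and 896 and 635 CPM in reload (-2.69, SE 0.27, edgeR adjusted p = 1.65e-13). Il1b was at 347 and 853 CPM in HU and 1267 and 710 CPM in reload in cDC1, and at 289 and 1129, then 3068 and 1804 CPM in Cd209a dendritic cells (-1.17, SE 0.21). Id2, which cDC1 require, was at 448 and 185 CPM in HU and 494 and 375 CPM in reload in cDC1, and at 222 and 184, then 115 and 154 CPM in Cd209a dendritic cells (1.18, SE 0.28, adjusted p = 0.0141). Cst3 and Vim moved in opposite directions relative to the other class (0.77, SE 0.14, and -0.80, SE 0.15).

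Markers of other cells were low in cDC1. Summed over 14 macrophage markers the level was 159 to 362 CPM per library, beside 22491 CPM in gated macrophages. Neutrophil markers summed to 202 and 134 CPM in young and old control and to at most 3.15 CPM elsewhere, and S100a8 and S100a9 made up most of this. T cell markers reached at most 26.5 CPM in any library, NK cell markers 14.1 CPM and endothelial markers 15.4 CPM. Erythrocyte markers reached 34.3 CPM in young control and at most 1.77 CPM in the other 5, and muscle fibre markers at most 14.1 CPM. B cell markers summed to 36.0 to 110 CPM and fibroblast markers to 91.4 to 263 CPM in every library. Monocyte markers were at 682 and 498 CPM in control, 82.3 and 211 CPM in HU and 584 and 751 CPM in reload, and thus moved with the difference between reload and HU, but their part in that difference was not tested. Genes listed for plasmacytoid dendritic cells moved with it too, from 165 and 241 CPM in HU to 476 and 616 CPM in reload (289 and 442 CPM in control). Of 5 tested genes 4 were higher at an unadjusted p under 0.05 in edgeR, beside 398 of all 4895, and none was called. Of the 5, 3 were at 0 in both HU libraries. The list does not mark plasmacytoid cells alone. Its pooled sum was 473 CPM in cDC1, 1041 CPM in Cd209a dendritic cells and 1656 CPM in macrophages. It includes Pltp, at 18.1 CPM in cDC1 and 671 CPM in Cd209a dendritic cells. In cDC1 the sum was also higher in the old library of each pair. In HU, however, 1 of the 5 tested genes was higher in old and 1 lower, and Bst2 gave 14 and 42 of the 18 and 47 UMIs (young and old). For age 3 of 5 were higher at an unadjusted p under 0.05 in edgeR, beside 73 of all 4895 genes, with Ly6d and Tcf4 among the 5. The part of these genes in either difference was not tested. The widely expressed Bst2 was the largest part of the sum. Siglech, a defining lectin of plasmacytoid dendritic cells, was at 0 in both HU libraries and at most 31.8 CPM elsewhere, in 24 cells.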

How the data were processed

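The authors aligned the 10x Genomics reads to mm10 and counted UMIs with Cell Ranger 3.1.0, and Seurat is named in the submitters' processing notes. The annotation release is not given in the sources used here. The deposited matrices hold raw UMI counts per gene and barcode for 15467 barcodes that Cell Ranger had kept, without cell type labels. Coordinates are from GENCODE vM21 of GRCm38, and symbols are those of the deposited feature lists.

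Barcodes with at least 200 genes and at most 10% mitochondrial UMIs were kept, and cDC1 were gated as the results describe. Cd209a dendritic cells had a UMI of Cd209a and of Clec10a, Mgl2, Flt3 or Irf4 and none of Clec9a, Xcr1, Cd3e, Cd79a or Ccr7, with at most 1 C1q UMI. UMIs were summed over the cDC1 of each library (at least 10 cells) and tested with edgeR 4.0.16 (TMM, filterByExpr, glmQLFit, glmQLFTest, R 4.3.3), with DESeq2 1.42.0 as an alternative. Adjusted p values are Benjamini-Hochberg over all genes tested. The class difference was tested on cDC1 and Cd209a sums with library as a term. CPM are per 1000000 summed UMIs, and 10 CPM were added before differences between single libraries were logged. Shares have exact Clopper-Pearson 95% intervals, and a count of 0 allows 3 counts. Shares of cells with a UMI used cells thinned to 2000 UMIs (seed 1). Doublets were scored with scrublet (0.8% per 1000 barcodes) and left in. Fits were tested on simulated data. Genes were named by rule: the gate genes, in each of 24 lists the 4 members with most UMIs and the 2 highest and 2 lowest differences, the 10 genes each way with the smallest adjusted p (5 each way by p where fewer than 5 passed) and the highest and lowest ratios between the classes. Batf3, Itgae, Tap1 and Psmb9 fell outside this rule and were named after their values were seen. The members and the lists were chosen with earlier results of these data known. The pools are single, so p values measure only the spread between libraries after the model. In the cDC1 fit this spread is how far age differences vary between treatments, and not the spread of replicates.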

Additional observations from a re-analysis of the deposited data

Results flagged for a closer look

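The responses of cDC1 and Cd209a dendritic cells were tested against each other, and the genes below differed between the classes at an adjusted p under 0.05 in the edgeR fit. Values are log2 differences, in cDC1 minus that in Cd209a dendritic cells. Where a gene was at 0 in whole groups, the fitted size depends on the prior count and is no measure of a fold.

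For old minus young, 8 of 6186 genes were called lower, 2 of them among the 23 tested cell cycle genes (Stmn1 at -1.17 and Tuba1b at -0.75). Neutrophil genes were lower too, S100a9 by -4.31 and S100a8 by -2.95, as was haptoglobin (Hp, -3.00). S100a9 was at 131 and 1500 CPM in young and old control Cd209a dendritic cells and at 101 and 47.7 CPM in cDC1, so the comparison class carried the difference there. The chemokines Ccl5 (-3.07) and Cxcl2 (-1.55) and the transcript AW112010 (-2.04) completed this side. On the higher side, Ly6d (7.02), Il5 (9.39), Ccl7 (3.65), Cd209c (4.13) and Pxdc1 (3.92) had few UMIs in cDC1, and the 32 UMIs of Il5 came from 1 old control cell. Sdc4 (1.998), Lmo4 (1.16) and Malat1 (0.56) were the others.

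For reload minus HU, 18 of 6186 genes were called higher and 33 lower. Of 19 tested interferon-stimulated genes 1 was called in each direction (Isg15 at 2.63 and Ly6e at -2.69). Id2 (1.18), Cst3 (0.77), Malat1 (1.06), Kctd12 (1.53), Wfdc17 (1.03) and the transcription factor Cebpb (2.22) were higher. Cebpb was at 18.3 and 10.3 CPM in HU and 119 and 92.8 CPM in reload in cDC1. Pltp (7.83), Ccl5 (8.18) and Ifitm6 (7.65) were at 0 in both HU libraries of cDC1, against which reload was at least 2.10-fold, 5.02-fold and 4.12-fold higher, and 158 of the Ccl5 UMIs came from 1 young reload cell. The lower side held Egr1 (-2.20), Ccl6 (-1.48), Il1b (-1.17), Nfkbia (-1.25), Tnfsf9 (-2.49), S100a4 (-1.41), Vim (-0.80), Sqstm1 (-1.18) and the arginine synthesis enzyme Ass1 (-2.37).

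Some differences went in opposite directions in single libraries and were not tested as such. The share of cDC1 among kept cells was lower in old control (-0.54 percentage points) and old reload (-2.40) and higher in old HU (0.53), and the share among dendritic cells was higher in old control (6.82) and old HU (18.1) and lower in old reload (-4.48). List medians between reload and HU in young and old muscle were 1.01 and -0.65 for mature dendritic cell genes, 1.12 and -0.80 for TNF and NF-kB genes and 0.54 and -0.98 for costimulation genes. In young HU these lists rest on 44, 116 and 66 UMIs. The medians of all genes were 0.28 and 0.24.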

How the results depend on the processing

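Genes named from the fits kept their direction in all but 3 of 1008 alternative values. The exceptions were Il5 in the age difference between classes, which ranged from -2.79 to 12.3 with each library left out in turn, and Tnfsf9 in that of reload, which ranged from -3.84 to 0.46 and was 0.46 without old HU. Numbers of calls were less stable. For age in cDC1 (0 calls) there were 2 with scaling to total counts, 23 with almost no filter, 1 without doublets, 2 with 0 C1q UMIs and 2 with cells thinned to 2000 UMIs, and 2 to 18 with a library left out. For reload against HU (16 calls) there were 106 with total counts, 170 with almost no filter, 37 with 0 C1q UMIs, 67 with thinned cells, 28 without barcodes shared between libraries and 40 with DESeq2, and 7 (without young reload) to 256 (without young control) with a library left out. For the age difference between classes (18 calls) there were 9 with a 5% mitochondrial limit, 7 without doublets, 6 with at least 3 gate genes, 10 with at least 1000 genes, 11 without shared barcodes, and 5 to 20 with a library left out. For the reload difference between classes (51 calls) there were 33, 9 and 23 with the mitochondrial limit, 3 gate genes and 1000 genes, and 5 (without young HU or young reload) to 48 with a library left out. A left-out library leaves its group empty, and the fit then assumes the remaining spread for it. The mean share difference between reload and HU among kept cells was 1.50 percentage points when cells were thinned before the gate (4.35 as reported). The median of the immediate early and heat shock list was -0.89 with TMM and -0.91 in the fit (-0.66 as the plain mean). Irf8 was detected in 85.1% of cells without thinning and 35.5% at 1000 UMIs, and 16.5% of cells passed the cycle criterion without thinning. The cause was not tested for any of these. The alternatives without shared barcodes, with thinning before the gate for the dendritic share with other thinning of the cycle criterion and with list medians from the fits were chosen after seeing the data. Ages were paired within treatments throughout, by treatment as a term or by swapping ages. No paired analysis by replicate number was possible because each group is 1 library. The depth of young HU (12 cells) limits every comparison with it.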
